A study of Mus musculus with 15 samples.

Results

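The genes described here are 10 transcription factor genes that mark the primitive streak of the mouse embryo and the presomitic mesoderm that forms from it: T, Mixl1, Eomes, Mesp1, Mesp2, Tbx6, Gsc, Evx1, Msgn1 and Lhx1. They were found by name, as every non-control probe whose gene name in the array files equals that of a member, which gave 13 probes of 10 genes among 39429 probes on the array. Of these, 11 probes of 8 genes passed the filter on dim probes, and the single probes of Mixl1 and Msgn1 did not. The study profiled total RNA on 1-colour Agilent arrays, from mouse embryonic stem (ES) cells and from EB9, embryoid bodies grown from such cells as they differentiate in clumps. There were 4 groups among the 15 arrays: EB9 labelled as depleted of Cbx7 with the hairpin named KD33 (4 arrays), control EB9 (4), ES cells with the same label (4) and control ES cells (3, numbered 2 to 4). The controls are given as untreated in the labels, while the series text names a control hairpin for the ES cells. The groups with this label are called knockdown here, whatever the level of Cbx7 on their arrays. Only 1 hairpin was used, and the labels give neither the age of EB9 nor a strain or clone.

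During gastrulation, epiblast cells pass through the primitive streak and become mesoderm and definitive endoderm. Nodal, Wnt and bone morphogenetic protein signals start the streak. T (Brachyury) and Eomes are T-box factors of the streak: Eomes acts first and is needed for the earliest mesoderm and endoderm, and T is a target of Wnt signalling that maintains posterior mesoderm. Mesp1 marks nascent, mostly cardiac and cranial mesoderm, and its neighbour Mesp2 sets segment borders in the presomitic mesoderm. Tbx6 and Msgn1 drive the presomitic fate. Mixl1, Gsc and Lhx1 are homeobox genes of the streak, with Gsc and Lhx1 marking its anterior end, and Evx1 is a homeobox gene of its posterior end. Cbx7 is a chromodomain subunit of Polycomb repressive complex 1, a repressor of genes of this kind in ES cells.

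Each level below is the log2 of the processed spot signal minus that of the array's 75th percentile, so that 0 is the brightness of that percentile. Levels of different probes are not comparable with each other, since probes bind with different strength. Between 62.5% and 69% of features lay well above background on 14 arrays, and 75.4% did on EB9 control 2. Each group sat at a position of its own on every slide, which means that group and position cannot be told apart, and p-values measure only the spread between arrays of a group. In whole aggregates, fewer cells of a type and less RNA per cell cannot be told apart. The difference of the RefSeq probe of Cbx7 between knockdown and control ES cells was −1.91 (SE 1.23, adjusted p = 0.256), and −1.41 with the slide as a block (adjusted p = 1e-04). In EB9 it differed by −0.27 (adjusted p = 0.92, 0.221 with the slide), and a second Cbx7 probe differed by −0.13 in ES cells and −0.16 in EB9 (adjusted p = 0.733 and 0.708). The 10 markers of undifferentiated ES cells were well above background on every array, and all 10 were lower in EB9 than in ES cells, with a median of −4.28 in control and −4 in knockdown.

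The probe positions in the files refer to mouse build mm9, and each probe is assigned there to the transcript of its gene; exon or untranslated region is not given. The T probe lies at chr17:8635302-8635361 on the plus strand, and the brighter Eomes probe at chr9:118394425-118394484. The Mesp1 probe, chr7:86937140-86937199 on the minus strand, and the Mesp2 probe, chr7:86957849-86957908 on the plus strand, are 20.6 kb apart. The brighter Tbx6 probe lies at chr7:133929000-133929059, the Gsc probe at chr12:105709426-105709485 and the Evx1 probe at chr6:52268298-52268357. The Lhx1 probe for the RefSeq transcript spans 153 bases at chr11:84335442-84335594 on the minus strand.

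The promoters of the 5 genes that were lower in knockdown EB9 are printed because the results turn on these genes. They are the 250 bases before the RefSeq transcription start (build GRCm38.p6), 5′ to 3′ on the strand of the gene, and capitals mark the TCF/LEF core TTCAAAG, the letters bound by the transcription factors of Wnt signalling.
T: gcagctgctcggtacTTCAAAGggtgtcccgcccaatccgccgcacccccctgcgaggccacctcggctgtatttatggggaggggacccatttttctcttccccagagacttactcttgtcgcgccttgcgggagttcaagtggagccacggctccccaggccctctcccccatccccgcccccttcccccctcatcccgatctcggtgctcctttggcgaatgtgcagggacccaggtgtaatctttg
Eomes: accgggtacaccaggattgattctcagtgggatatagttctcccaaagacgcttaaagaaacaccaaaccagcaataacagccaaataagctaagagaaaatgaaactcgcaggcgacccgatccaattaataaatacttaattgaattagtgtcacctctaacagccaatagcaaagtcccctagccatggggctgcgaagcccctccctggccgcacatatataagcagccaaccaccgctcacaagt
Mesp1: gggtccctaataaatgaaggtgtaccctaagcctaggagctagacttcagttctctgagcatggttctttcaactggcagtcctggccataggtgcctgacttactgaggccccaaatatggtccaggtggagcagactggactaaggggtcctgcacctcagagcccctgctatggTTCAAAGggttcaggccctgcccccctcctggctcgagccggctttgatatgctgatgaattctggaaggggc
Gsc: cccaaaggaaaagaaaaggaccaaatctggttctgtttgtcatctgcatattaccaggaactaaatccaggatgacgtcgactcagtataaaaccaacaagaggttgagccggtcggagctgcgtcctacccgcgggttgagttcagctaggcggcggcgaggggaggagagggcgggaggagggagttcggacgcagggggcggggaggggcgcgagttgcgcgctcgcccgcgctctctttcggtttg
Evx1: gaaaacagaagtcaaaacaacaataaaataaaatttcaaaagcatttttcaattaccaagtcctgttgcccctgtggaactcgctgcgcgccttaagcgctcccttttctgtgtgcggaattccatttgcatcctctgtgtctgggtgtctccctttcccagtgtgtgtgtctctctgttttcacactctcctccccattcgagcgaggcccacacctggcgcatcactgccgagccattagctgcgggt
The window runs over chr17:8434173-8434422 for T, chr9:118477939-118478188 for Eomes, chr7:79793591-79793840 (minus strand) for Mesp1, chr12:104473237-104473486 (minus strand) for Gsc and chr6:52313248-52313497 for Evx1. RefSeq promoters were found for 9 of the 10 genes. In windows of 300 bases, which add the first 50 of the transcript, TTCAAAG on either strand was present in T, Mesp1 and Msgn1, and in 5.14% of all 32851 promoters. It began at position −235 relative to the start of T and at −73 relative to that of Mesp1. The T-box core GGTGTGA was present in Mesp1, just after the start and on the opposite strand, and in 3.98% of all promoters. The FOXH1 site AATCCAC, bound by a partner of Nodal signalling, was present in Mesp2 and in 2.49% of all. The 3 motifs do not overlap each other in these windows, and a match is a description of letters only. CpG dinucleotides, which mark the promoters that Polycomb complexes often occupy, numbered 31 per 300 bases in Lhx1, 25 in Gsc, 17 in T, 12 in Evx1, 10 in Eomes and Mesp2, 7 in Tbx6, and 4 in Mesp1 and Msgn1, against a median of 7 over all promoters.

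Knockdown of Cbx7 was compared with control in EB9 to ask how the streak programme stood in differentiated cells that carry the hairpin; Cbx7 itself did not pass the test between these groups. T, Mesp1, Eomes, Gsc and Evx1 were lower in knockdown EB9, and no member passed as higher. T was lowest relative to control, 6.93-fold, and Mesp1 was 3.17-fold lower. Of the 11 probes, 6 passed the test, 6 lower and 0 higher, against 14.1% of all 27250 probes tested (7.65% higher and 6.49% lower). The 6 probes belong to 5 genes. With the slide as a block, 6934 in place of 3852 of all probes passed, and again 6 of the 11 member probes. The median difference over the 11 probes was −0.89 and that over all probes −0.01.

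T was at −4.39, −3.78, −5.32 and −5.37 in knockdown EB9, against −2.76, −1.04, −1.95 and −1.92 in control EB9. Every knockdown array lay below every control array. The difference was −2.79 (SE 0.36, adjusted p = 0.000501). On slides 1 to 4 it was −1.62, −2.74, −3.37 and −3.45. The spread was wide in both groups, with SDs of 0.77 in knockdown and 0.7 in control (n = 4 each), and EB9 control 2, the array with most features above background, held the highest T level.

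Eomes was at −2.5, −2.75, −2.78 and −2.88 in knockdown EB9, against −1.6, −1.94, −1.91 and −1.9 in control EB9. The groups did not overlap and each was tight, with an SD of 0.16 in both. The difference was −0.89 (SE 0.11, adjusted p = 0.000341), a 1.86-fold lower signal, and between −0.98 and −0.81 on the 4 slides. The second Eomes probe, which lies further along the same transcript, gave −0.98 (SE 0.11, adjusted p = 0.000207).

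Mesp1, which Eomes activates in the embryo, was at −4.29, −4.26, −4.74 and −4.84 in knockdown EB9, against −3.48, −2.15, −2.84 and −2.98 in control EB9. Again no knockdown array reached the lowest control. The difference was −1.67 (SE 0.22, adjusted p = 0.000621), with −0.81 on slide 1 and between −2.11 and −1.85 on the others.

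Among the homeobox genes, Gsc was at −5.37, −4.37, −5.25 and −5.36 in knockdown EB9, against −4.11, −3.52, −4.2 and −4.2 in control EB9. The second array of each group stood above its fellows, and both lay on slide 2; the groups still did not overlap. The difference was −1.08 (SE 0.22, adjusted p = 0.00771) and between −1.26 and −0.86 within slides. Evx1 was at −1.06, 0.01, −0.77 and −0.94 in knockdown EB9, against −0.07, 0.76, 0.54 and 0.44 in control EB9. The groups overlapped, since knockdown array 2 lay above control array 1, yet on every slide the knockdown was lower, by −0.98, −0.75, −1.31 and −1.38. The difference was −1.11 (SE 0.22, adjusted p = 0.00656). With the EB9 arrays fitted alone, the adjusted p was 0.0616 for Gsc and 0.0608 for Evx1. By the brightest probe, 4 of 8 genes had EB9 groups that did not overlap, 4 lower and 0 higher, against 15.2% of all probes (7.96% higher and 7.29% lower).

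**Figure D1:**
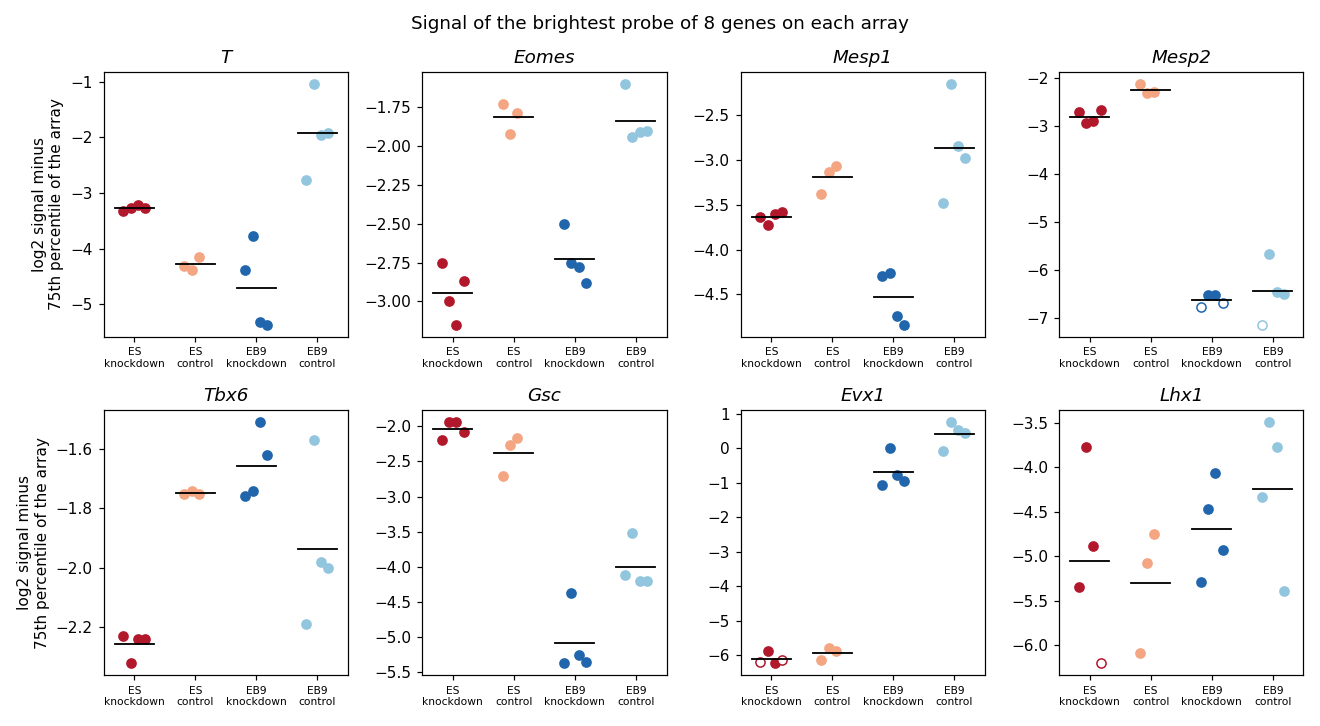
Level of the brightest kept probe of 8 genes on each of the 15 arrays, as log2 signal minus the 75th percentile of the array (each panel has its own scale); points are arrays, placed from left to right by slide within a group, bars are group means, and open points are spots not well above background. T, Eomes, Mesp1 and Gsc are lower on all 4 knockdown EB9 arrays than on any control EB9 array, and T is higher on all 4 knockdown ES arrays (−3.33 to −3.21) than on the 3 control ES arrays (−4.38 to −4.15).

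The presomitic members Tbx6 and Mesp2 did not pass the test in EB9, and neither did Lhx1. Tbx6 was at −1.76, −1.74, −1.51 and −1.62 in knockdown EB9, against −2.19, −1.57, −1.98 and −2 in control EB9. The difference of its brighter probe was 0.28 (95% interval 0.05 to 0.5, adjusted p = 0.1); without EB9 control 2 it was 0.4 (adjusted p = 0.00397). The dimmer Tbx6 probe gave −0.2 (adjusted p = 0.664), so the 2 probes differed in sign. Mesp2 was near background, at −6.78, −6.53, −6.52 and −6.69 in knockdown EB9 and −7.14, −5.66, −6.45 and −6.49 in control EB9. It was well above background on 2 of 4 knockdown and 3 of 4 control arrays, with a difference of −0.2 (interval −0.68 to 0.28, adjusted p = 0.635) that became 0.06 without EB9 control 2. Lhx1 gave −0.44 (interval −1.59 to 0.7, adjusted p = 0.66) with 1 probe and −0.33 (interval −0.77 to 0.12, adjusted p = 0.337) with the other.

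**Figure D2:**
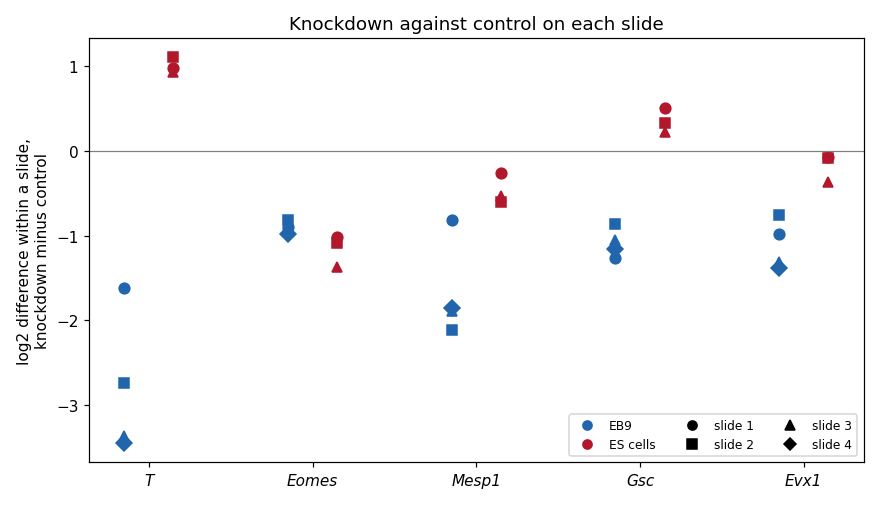
Difference between the knockdown and the control array of the same slide (log2, 1 point per slide) for the 5 genes that were lower in knockdown EB9, in EB9 (blue) and in ES cells (red, 3 slides, since slide 4 held no control ES array). All 5 genes lie below 0 on every slide in EB9, T between −3.45 and −1.62, and T lies above 0 in ES cells, between 0.94 and 1.11.

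In undifferentiated ES cells the same comparison asks which of these genes respond before differentiation. Eomes and Tbx6 were lower in knockdown ES cells, and T was higher on every knockdown array though its test missed the threshold. Of the 11 probes, 3 passed, 0 higher and 3 lower, against 38.1% of all probes (21.9% higher and 16.2% lower). The 3 lower calls come from 2 genes, both Eomes probes and the brighter Tbx6 probe. By the brightest probe, 0 of 8 genes were higher and 2 lower, and with the slide as a block 1 was higher and 2 lower. Calls this few do not set the members apart from all probes. The median difference was −0.43 over the 11 probes and 0.05 over all.

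Eomes was at −2.75, −3, −3.15 and −2.87 in knockdown ES cells, against −1.73, −1.92 and −1.79 in control ES cells. The groups lay about 1 log2 unit apart with no overlap. The difference was −1.13 (SE 0.12, adjusted p = 9.98e-06), a 2.19-fold lower signal, and the second probe gave −1.21 (adjusted p = 6.59e-06). Tbx6 was at −2.23, −2.32, −2.24 and −2.24 in knockdown ES cells, against −1.75, −1.74 and −1.75 in control ES cells. Its brighter probe differed by −0.51 (SE 0.11, adjusted p = 0.00311), while the dimmer probe gave −0.43 with overlapping groups (adjusted p = 0.23).

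T was at −3.33, −3.27, −3.21 and −3.27 in knockdown ES cells, against −4.31, −4.38 and −4.15 in control ES cells. All 4 knockdown arrays lay above all 3 controls. The difference was 1.01 (SE 0.39, adjusted p = 0.0589), a 2.01-fold higher signal. The test pools the spread of all 4 groups, and T varied far more in EB9 than in ES cells, where the SDs were 0.05 in knockdown and 0.12 in control. With the ES arrays fitted alone the adjusted p was 8.53e-05, and with the slide as a block 0.0404. With the authors' values the difference was smaller, 0.71 (adjusted p = 0.0419). Without EB9 knockdown 2, EB9 control 1 or EB9 control 2 the adjusted p was 0.0291, 0.036 and 0.0319, and it reached 0.145 on leaving out other arrays.

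Mesp2 was at −2.7, −2.94, −2.89 and −2.67 in knockdown ES cells, against −2.12, −2.3 and −2.29 in control ES cells. These groups too were separate. The difference of −0.56 missed the threshold (SE 0.24, adjusted p = 0.084). It passed with the ES arrays alone (0.00264), and without EB9 control 1 (0.0207) or EB9 control 2 (0.0101). With the authors' values it passed too (0.00283), at a smaller difference of −0.42. The adjusted p was 0.0972 with the slide as a block and reached 0.194 on leaving out other arrays. Mesp1 was at −3.64, −3.73, −3.6 and −3.58 in knockdown ES cells, against −3.38, −3.13 and −3.07 in control ES cells. Its difference was −0.45 (interval −0.97 to 0.08, adjusted p = 0.173, 0.194 with the slide as a block and 0.00648 with the ES arrays alone). Gsc differed by 0.34 (interval −0.18 to 0.87, adjusted p = 0.296) and Evx1, which was well above background on 2 of 4 knockdown and 3 of 3 control arrays, by −0.18 (interval −0.69 to 0.34, adjusted p = 0.622). In all, 5 of the 8 genes had groups that did not overlap, 1 higher and 4 lower, against 49.3% of all probes (27.7% higher and 21.6% lower). Without EB9 control 1 or EB9 control 2, arrays that enter this comparison only through the pooled spread, the number of member probes that passed was 5 and 6 in place of 3.

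**Figure D3:**
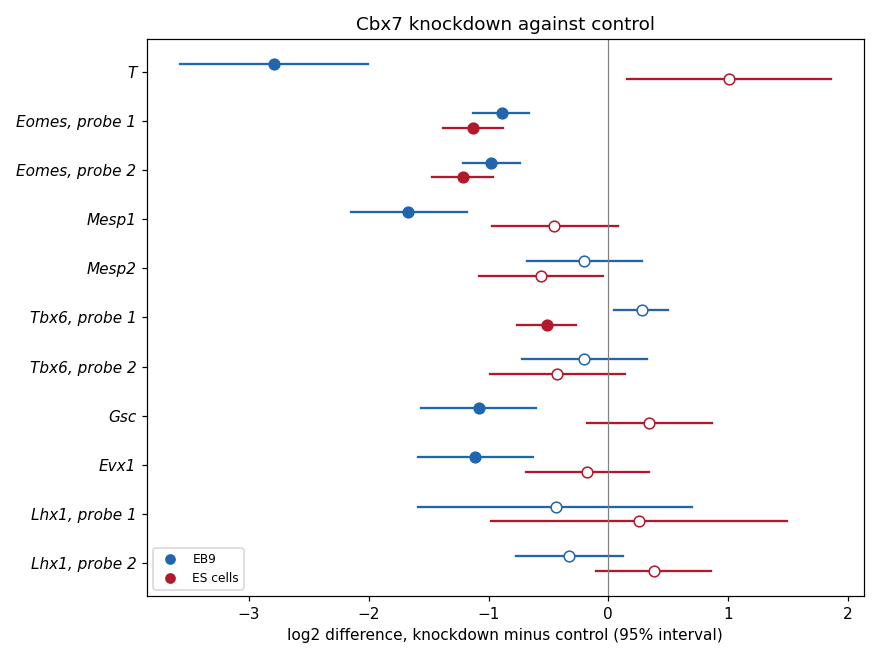
Log2 difference, knockdown minus control, of the 11 kept probes in EB9 (blue) and ES cells (red), with 95% intervals; filled points passed at an adjusted p under 0.05. T lies at −2.79 in EB9 and 1.01 in ES cells, while both Eomes probes lie near −1 in both.

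The difference between the 2 knockdown effects was tested directly, as the EB9 effect minus the ES effect. There 5 of the 11 probes passed, 1 higher and 4 lower, against 28.9% of all probes (12.4% higher and 16.5% lower). T had the largest difference, −3.8 (SE 0.53, adjusted p = 0.000216), since knockdown was lower in EB9 and higher in ES cells. Gsc differed by −1.43 (SE 0.33, adjusted p = 0.00568) and Mesp1 by −1.22 (SE 0.33, adjusted p = 0.0139). Tbx6 went the other way with its brighter probe, 0.79 (SE 0.15, adjusted p = 0.00209), but the dimmer probe gave 0.23 (adjusted p = 0.705). Evx1 differed by −0.93 (adjusted p = 0.0482); this call was lost on leaving out 13 of the 15 arrays in turn, with an adjusted p of up to 0.111, and without the filter on dim probes (0.0749), and was 0.00474 with the slide as a block. For Eomes the difference of effects was 0.24 (interval −0.1 to 0.58, adjusted p = 0.299). For Mesp2 it was 0.37 (interval −0.34 to 1.07, adjusted p = 0.464), and 0.62 without EB9 control 2 (adjusted p = 0.0435).

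EB9 was then compared with ES cells within each arm, to see which members the differentiation itself moved. Evx1 and T were higher and Mesp2 and Gsc lower in control EB9 than in control ES cells. In the knockdown arm Evx1 was again higher and Mesp2 and Gsc lower, but T and Mesp1 were lower in EB9 than in ES cells. In control, 6 of the 11 probes passed, 3 in each direction, against 74.9% of all probes (33.8% higher and 41.2% lower). In knockdown 7 passed, 3 higher and 4 lower, against 78.2% (34.2% higher and 43.9% lower). Both shares lie below the background. The dimmer Lhx1 probe is among the higher calls of both arms, where it had to differ, since it passed the filter through EB9 alone.

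Evx1 was between −1.06 and 0.01 in knockdown EB9, against −6.22 to −5.86 in knockdown ES cells, a 42.6-fold higher signal (difference 5.41, SE 0.22, adjusted p = 5.17e-11). In control EB9 it was between −0.07 and 0.76, against −6.13 to −5.78 in control ES cells, 81.2-fold higher (6.34, SE 0.24, adjusted p = 2.67e-11). Evx1 thus had the highest levels of its own range in control EB9, followed by knockdown EB9, with both ES groups near background.

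T showed opposite directions in the 2 arms. In knockdown it was 2.72-fold lower in EB9 than in ES cells (−1.44, SE 0.36, adjusted p = 0.00251), with no overlap between the groups. In control it was 5.14-fold higher in EB9 than in ES cells (2.36, SE 0.39, adjusted p = 9.5e-05). The order of its group means was control EB9 (−1.92 ± 0.7), knockdown ES cells (−3.27 ± 0.05), control ES cells (−4.28 ± 0.12) and knockdown EB9 (−4.71 ± 0.77, SD, n = 4, 4, 3 and 4). The last 2 overlapped: the knockdown EB9 arrays spanned −5.37 to −3.78.

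Mesp2 was 14.2-fold lower in EB9 than in ES cells with knockdown (−3.83, SE 0.22, adjusted p = 1.93e-09) and 18.3-fold lower in control (−4.2, SE 0.24, adjusted p = 1.95e-09). Its ES arrays were all well above background, between −2.94 and −2.12. Its neighbour Mesp1 was 1.86-fold lower in knockdown EB9 than in knockdown ES cells (−0.89, SE 0.22, adjusted p = 0.00244), and in control differed by 0.33 (interval −0.2 to 0.85, adjusted p = 0.236; 0.53 and 0.0354 without EB9 control 1). Gsc was at −2.19, −1.94, −1.94 and −2.08 in knockdown ES cells and −2.7, −2.27 and −2.17 in control ES cells, above every EB9 array. It was 8.3-fold lower in knockdown EB9 than in knockdown ES cells (−3.05, adjusted p = 2.18e-08) and 3.09-fold lower in control EB9 than in control ES cells (−1.63, adjusted p = 3.27e-05).

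The brighter Eomes probe did not pass the test between stages. It differed by 0.22 in knockdown (interval −0.02 to 0.45, adjusted p = 0.0809; 0.0127 with the slide as a block, 0.035 without ES knockdown 1, 0.0499 without EB9 knockdown 4 and up to 0.244 without other arrays). In control it differed by −0.02 (interval −0.27 to 0.23, adjusted p = 0.872). The second probe gave −0.04 in knockdown and −0.28 in control (adjusted p = 0.738 and 0.0487, the last 0.0537 with the slide). Tbx6 was 1.51-fold higher in knockdown EB9 than in knockdown ES cells with its brighter probe (0.6, adjusted p = 0.000143) and differed by 0.18 with the dimmer one (adjusted p = 0.519). In control, the brighter probe differed by −0.19 (adjusted p = 0.143), and by −0.31 without EB9 control 2 (adjusted p = 0.0022).

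**Figure D4:**
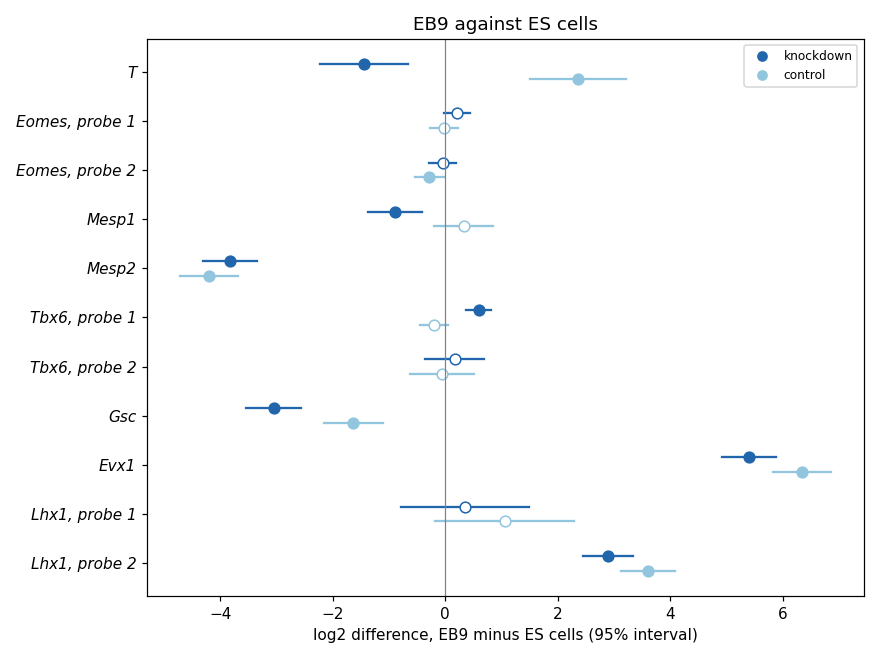
Log2 difference, EB9 minus ES cells, of the 11 kept probes in knockdown (dark blue) and control (light blue), with 95% intervals; filled points passed at an adjusted p under 0.05. Evx1 lies at 5.41 and 6.34, Mesp2 at −3.83 and −4.2, and T on opposite sides of 0, at −1.44 in knockdown and 2.36 in control.

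The 2 Lhx1 probes differed. The probe for the RefSeq transcript ranged from −5.29 to −4.06 in knockdown EB9 and from −5.39 to −3.49 in control EB9, and from −6.2 to −3.77 in knockdown ES cells and −6.09 to −4.75 in control ES cells. These groups overlapped widely, with SDs of 0.54 to 1.01. In control this probe differed by 1.06 between EB9 and ES cells (adjusted p = 0.11; 0.00271 with the slide as a block, 0.0326 without EB9 control 4, up to 0.354 without other arrays). With the authors' values the difference was smaller, 0.63 (adjusted p = 0.00745). The other probe, at chr11:84331888-84331947, was well above background on all 8 EB9 arrays and on no ES array, so its signal in EB9 was at least 1.81-fold higher in knockdown and at least 2.67-fold higher in control. These are descriptions, since the filter fixed the direction. Mixl1, at −8.95 to −6.81 over all arrays, was well above background on 0 of 15. Msgn1 was so on 1, EB9 control 2, where it was at −5.79, and it was at −7.05 or lower on the other arrays. Neither was tested.

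The lists of related genes show how the pathway around these factors stood in knockdown EB9. Each count of calls in these lists stands against 7.65% of all probes higher and 6.49% lower in EB9. All list counts, in EB9 and in ES cells, are from the fit without the slide. With the slide as a block more of all probes passed in EB9, and so did further list genes. Among them were Axin2 (adjusted p = 0.00183) and Twist1 (0.00626), both lower, and Cdh2 (0.018), which was higher. Of 13 measured streak signals and effectors, 1 was higher and 5 were lower, with a median of −0.49. Fgf8, a growth factor of the streak that cells need to leave it, fell by 1.35 (SE 0.23, adjusted p = 0.00238), and Foxh1, the DNA-binding partner of Nodal signalling, fell by 0.49 (adjusted p = 0.0025). Tdgf1, the Nodal co-receptor, was higher by 0.45 (adjusted p = 0.0208). The Wnt targets Sp5 and Lef1, named because they passed in ES cells, fell by 1.11 and 0.73 in knockdown EB9 (adjusted p = 0.00581 and 0.0106). Nodal differed by −0.2 (adjusted p = 0.166).

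Of 8 measured genes of the anterior streak, node and definitive endoderm, 0 were higher and 3 lower in knockdown EB9, with a median of −0.38. Cer1, a secreted inhibitor of Nodal, was well above background on 0 of 4 knockdown and 4 of 4 control EB9 arrays and was at least 2.83-fold lower; it passed the filter through the control EB9 arrays alone, so that its direction was fixed and its call supports nothing. Sox17, a factor of definitive endoderm, fell by 0.58 (adjusted p = 0.00706). Of 17 presomitic and paraxial genes, 1 was higher and 3 lower, with a median of −0.14. Foxc2 was higher by 0.57 (adjusted p = 0.000266), and Cyp26a1, which clears retinoic acid from the tail end, fell by 0.77 (adjusted p = 0.0013). Fgf17 gave −1.57 (adjusted p = 0.0189), a call made near background. It was well above background on 0 of 4 knockdown and 1 of 4 control EB9 arrays. Of 11 genes of the epithelial to mesenchymal transition, 0 were higher and 1 lower, Snai1, which fell by 0.39 (adjusted p = 0.0254), a share near that of all probes. Of 12 genes of lateral, cardiac and blood mesoderm, 0 were higher and 3 lower, among them Etv2, a factor of blood and vessel progenitors, which fell by 0.99 (adjusted p = 0.00171).

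In knockdown ES cells the calls in the same lists stand against 21.9% of all probes higher and 16.2% lower. Of the 13 streak signals, 3 were higher and 1 lower, with a median of −0.05. Sp5 was higher by 1.42 (SE 0.23, adjusted p = 0.000404), Lef1 by 0.68 (adjusted p = 0.00759) and Fgf8 by 0.71 (adjusted p = 0.0355), while Nodal fell by 0.3 (adjusted p = 0.0242). Of the 17 presomitic genes, 6 were higher and 1 lower (median 0.28), led by Foxc1, which was higher by 1.06 (adjusted p = 6.3e-05); the 7 calls of 17 are close to the 38.1% over all probes. Of the 8 anterior streak genes, 0 were higher and 1 lower, Foxa2, a forkhead factor of node and endoderm, which fell by 0.69 (adjusted p = 0.00996), with a median of −0.04. Of the 11 genes of the epithelial to mesenchymal transition, 1 was higher, Cdh2 by 1.1 (adjusted p = 8.43e-06), and 2 were lower, Pdgfra, which fell by 0.81 (adjusted p = 6.04e-06), and Fgfr1, which fell by 0.51 (adjusted p = 4.76e-05), with a median of 0.01. Of the 12 lateral, cardiac and blood genes, 8 were higher and 0 lower (median 0.69), such as Gata4 by 0.79 (adjusted p = 1.59e-07) and Nkx2-5 by 1 (adjusted p = 4.21e-05). The median over all probes was 0.05. In the difference of effects, 1 of the 13 streak signals was higher and 4 were lower, against 12.4% and 16.5% of all probes. The knockdown effect was lower in EB9 than in ES cells for Sp5 (−2.53, SE 0.32, adjusted p = 9.92e-05) and Fgf8 (−2.06, SE 0.33, adjusted p = 0.000581), as it was for T. That on Tdgf1 was higher in EB9 (0.63, SE 0.17, adjusted p = 0.0138).

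**Figure D5:**
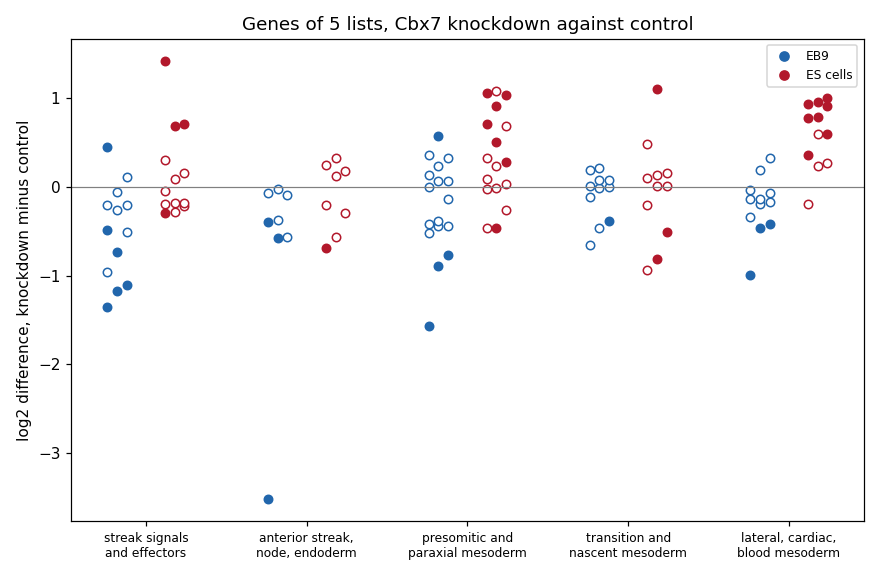
Log2 difference, knockdown minus control, of each measured gene of 5 lists in EB9 (blue) and ES cells (red); filled points passed at an adjusted p under 0.05, and the EB9 point near −3.5 is Cer1, which was at background in knockdown. In EB9, 5 of 13 streak signals are lower and 1 higher, and in ES cells 8 of 12 lateral, cardiac and blood genes are higher and 0 lower.

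Among 21097 genes with values on all 15 arrays, those whose pattern was closest to T, by the root mean square difference of centred log2 levels, were Crabp2, a carrier of retinoic acid, at 0.66 and Fgf8 at 0.67. For Eomes they were Mdfic (0.23) and Gng13 (0.25), for Mesp1 Hoxb9 (0.3) and Cpxm2 (0.34), for Mesp2 Mlc1 (0.2) and Tex19.2 (0.21), for Gsc Tmem35a (0.23) and Mall (0.28), and for Evx1 Gimap1 and Nckap5 (0.36 each). A member's own SD over the arrays sets the scale of this measure, 1.23 for T and 0.55 for Eomes. Between members, the closest pairs were Eomes with Tbx6 (0.53), Eomes with Mesp1 (0.54) and T with Mesp1 (0.76), and the most distant was Mesp2 with Evx1 (4.94). Tbx6 varied little (SD 0.28), and a flat profile would lie about as close to Eomes as Tbx6 or Mesp1 did. Mesp1 had an SD of 0.72, so a flat profile would lie about as close to it as T did. The closeness of the closest pairs therefore does not show a shared pattern.

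Markers of other cells were counted in the same way. Their calls stand against 7.65% of all probes higher and 6.49% lower in EB9. In ES cells the shares were 21.9% higher and 16.2% lower. Of 7 markers of visceral endoderm, a tissue that also expresses Eomes and Lhx1, 0 were higher and 4 lower in knockdown EB9 (median −0.46), Cubn, which fell by 1.28, and Amn, which fell by 1.22, among them; its defining markers Ttr, Afp and Apoa1 were well above background on all EB9 arrays, and these 3 did not pass. The summed level of the list was 4.93 to 5.56 in knockdown EB9 and 5.46 to 5.92 in control EB9. Most of this sum was Apoe, so it does not describe the other markers. In knockdown EB9, Apoe lay 0.72 below its mean of 5.56 in knockdown ES cells. Of 5 markers of primed epiblast, the tissue from which the streak arises, 0 were higher and 3 lower, with summed levels of 2.76 to 3.5 in knockdown EB9 and 3.7 to 4.07 in control EB9. Dnmt3b, the largest part of these sums, fell by 0.86 (adjusted p = 0.00109). Of 10 markers of undifferentiated ES cells, 3 were higher and 1 lower, with summed levels of 4.93 to 5.22 in knockdown EB9 and 4.77 to 5.13 in control EB9. Of 6 trophoblast markers, 1 was higher and 1 lower, and Elf5 was at background in EB9. In knockdown ES cells, 2 trophoblast markers were higher, Tfap2c by 0.42 (adjusted p = 0.00539) and Hand1 by 0.36 (adjusted p = 0.0418). The 1 lower was Elf5, which passed the filter through the control ES arrays alone. Summed levels of the list were 3.75 to 4.27 in knockdown and 4.05 to 4.31 in control ES cells. Eomes is a trophoblast gene too. Of the 7 visceral endoderm markers, 1 was higher and 3 lower in knockdown ES cells. The higher one was Apoe, by 0.74 (adjusted p = 0.000835). Cubn fell by 1.33 (adjusted p = 0.00614) and Hnf4a by 1.11 (adjusted p = 0.0112). The third lower call, Afp at −0.98 (adjusted p = 0.000228), was made at background in both groups. Ttr, Afp and Apoa1 were well above background on 0 ES arrays. The summed level of the list was 5.44 to 5.78 in knockdown and 4.81 to 4.96 in control ES cells. Nearly all of this sum was Apoe, with means of 5.56 and 4.82, so it does not describe the other markers. Of the 6 parietal endoderm markers, 0 were higher and 3 lower, with summed levels of 5.39 to 5.58 in knockdown and 5.92 to 6.02 in control ES cells. Of the 5 primed epiblast markers, 2 were higher and 1 lower, so the list went both ways. Sox3 was higher by 1.53 (adjusted p = 0.000333) and Fgf5 by 1.41 (adjusted p = 0.000693), while Otx2 fell by 1.48 (adjusted p = 1.24e-05). Fgf5 was well above background on 4 of 4 knockdown and 0 of 3 control ES arrays, so its signal was at least 1.92-fold higher. The summed levels were 3.48 to 3.52 in knockdown and 3.74 to 3.81 in control ES cells. Most of this sum was Dnmt3b, with means of 3.07 and 3.38, which did not pass (adjusted p = 0.0859). The neuroectoderm list had 0 of 4 measured markers past the test in EB9 and 3 higher in knockdown ES cells, of which Olig2 passed the filter through that group alone. Of 6 parietal endoderm markers, 1 was higher and 2 lower in knockdown EB9, and of 5 fibroblast markers 0 were higher and 2 lower. The part of these cell types in the results was not tested.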

How the data were processed

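Total RNA (500 ng per sample, per the labels) was labelled with Cy3. The scans were extracted with Agilent Feature Extraction 10.7.3.1, per the file headers. The authors deposited its intensity values, corrected within the array for background and spatial trend. The authors' deposited table holds log2 values; normexp with an offset of 50 and quantile normalization of the scans gave those values within 0.000154, and it served as an alternative.

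Here the processed intensity was put on the log2 scale and each array's 75th percentile of 43020 non-control features subtracted. Outlier spots (109 to 179 per array) were left out and repeated spots averaged, which gave 39429 probes. The filter kept 27250 probes that lay well above background on 3 or more arrays of some group; 96 of them lack a value on some array and were fitted without it. Differences were tested per probe with limma 3.58.1 (R 4.3.3; data.table of version 1.17.8 read the files): group means over 15 arrays, empirical Bayes, two-sided, Benjamini-Hochberg over all kept probes, called at an adjusted p under 0.05. The number of arrays limits the precision. The scripts were tested on simulated data.

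A gene with several probes is given by its brightest, and others where they differ. A bound ("at least") applies where no array of the dimmer group was well above background; it sets the bright group's mean against the lowest signal still above background. Of each list and comparison, up to 2 genes that passed in each direction, those with the lowest adjusted p, are named, and for each member the 2 genes closest in pattern. A summed level is the log2 of a list's summed linear signals. The members and lists were chosen with earlier results of these data known.

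Slides were read from the file headers. Arrays of a slide deviated together (21 pairs, median r 0.41, 0.21 to 0.6, across probes), and in the other 3 groups the replicate number is that of the slide. ES controls lay on slides of another number and did not pair with arrays of their own (9 pairs, median −0.31). The slide as a block is therefore the alternative given beside results. Other alternatives were quantile normalization, other filters, outlier spots kept, genes as the unit, array weights, fits on the compared arrays alone and leaving out each array. Protein sequences were planned but not used here.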

Additional observations from a re-analysis of the deposited data

Results flagged for a closer look

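Single arrays stood apart from the others of their group at 4 of 33 group and probe combinations examined (Dixon's test at the 95% level), where chance gives about 1 in 20. Eomes was at −1.6 on EB9 control 1, above the other control EB9 arrays. Tbx6 was at −2.32 on ES knockdown 2, below the others by a small margin in a tight group. Gsc was at −4.37 on EB9 knockdown 2 and at −3.52 on EB9 control 2, both above their fellows and both on slide 2.

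The knockdown effect in EB9 minus that in ES cells passed the interaction test for 5 genes. It was −3.8 for T, −1.43 for Gsc, −1.22 for Mesp1 and −0.93 for Evx1, all lower in EB9, and 0.79 for the brighter probe of Tbx6, which was higher.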

How the results depend on the processing

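The 5 genes lower in knockdown EB9 kept their direction under every alternative run; T, Eomes and Mesp1 passed under all of them, and Gsc and Evx1 did not with only the compared arrays. Over all results, leave-one-out apart, 411 values kept direction and side of the threshold, 25 passed only under the alternative, 6 were lost and 5 changed sign; on leaving out each array the counts were 569, 12, 13 and 6. The number of member probes that passed in ES cells was 3, and 5 with normexp or the authors' values, 7 with only the compared arrays, 8 with array weights and 3 to 6 on leaving out an array. The number of all probes that passed in EB9 was 3852, and 6934 with the slide as a block, 1263 with only the compared arrays, 7614 with array weights and 2096 to 5448 on leaving out an array (lowest without EB9 knockdown 4, highest without EB9 knockdown 2). Values that changed sign had not passed the test: Lhx1 in ES cells became −0.3 with array weights and ranged from −0.17 to 0.64 on leaving out an array; Tbx6 in EB9 was −0.2 with its other probe; Mesp2 in EB9 ranged from −0.43 to 0.06. Between EB9 and ES cells, Eomes in control became 0.01 with quantile normalization and with array weights and ranged from −0.1 to 0.02; in knockdown it was −0.04 with its other probe, and Lhx1 ranged from −0.03 to 0.79. The cause was not tested.

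With the replicate number as a block, T in ES cells was 1.07 (adjusted p = 0.0447), Eomes between EB9 and ES cells in knockdown 0.22 (adjusted p = 0.00816) and its difference of effects 0.31 (adjusted p = 0.0273); otherwise the number of member probes that passed did not change, and the numbers did not pair the ES controls with the other groups. Between knockdown and control EB9 the number is the slide, and those arrays deviated together.

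Signal over background limits Mixl1, Msgn1, Evx1 in ES cells, Mesp2 in EB9 and the dimmer Lhx1 probe in ES cells.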
